A study of Mus musculus with 24 samples.

Results

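The 12 h harmonic of DNA repair in mouse kidney was examined over the 12 kidney libraries of a series of 24, all of which were used. For every gene entry with a symbol, the reads of the transcribed strand (TS) were tested for a 12 h cosine and sine, in a model that also held the 24 h cosine and sine and the replicate number. The libraries are XR-seq libraries, made from the short DNA pieces that are released when nucleotide excision repair removes a lesion, so that each read marks a repair event on 1 strand. All animals were wild-type C57BL/6J females of 6 months, kept under 12 h light and 12 h dark, injected intraperitoneally with cisplatin at 10 mg/kg and killed 2 h later at the times given. Kidney was taken at zeitgeber time (ZT, hours after lights on) 0, 4, 8, 12, 16 and 20, with 2 libraries per time, and liver by the same plan, with 12 libraries. Whether the libraries of each time stem from different mice is not stated, and p-values then measure only how far these libraries spread, which may be technical. No untreated kidney was analysed here.

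Rhythms of about 12 h have been described in mouse tissues beside the 24 h rhythm of the circadian clock, most often in liver and for genes of the unfolded protein response, in which the transcription factor XBP1 acts, and of protein secretion. The circadian clock is a feedback loop: the activators CLOCK and BMAL1 (gene Arntl) switch on the Per and Cry repressors, while REV-ERB and ROR receptors repress and activate Arntl. Repair of the transcribed strand is coupled to transcription, because a stalled RNA polymerase recruits the repair factors, and TS repair therefore carries transcription in its signal. In whole tissue, fewer cells of a type and less repair per cell cannot be told apart.

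With 6 times, a 12 h period folds ZT0 with ZT12, ZT4 with ZT16 and ZT8 with ZT20, and the test asks whether these 3 folded groups of 4 libraries differ. At a sampling interval of 4 h, a period of 12 h and one of 6 h give the same values and cannot be told apart. A 24 h wave that is not a pure cosine also has a 12 h part, which cannot be told apart from a separate 12 h rhythm. Amplitudes are given on the log2 scale of the counts, measured from the middle to the peak of the fitted cosine, with the standard error (SE). A fitted amplitude is never below 0, so that its median lies above 0 without any rhythm, and by more where the SE is larger. Levels of single libraries are CPM, TS reads scaled to 1000000 per library after TMM scaling. Where the non-transcribed strand (NTS) is named, they are CPM of the NTS reads. Sums of cell type markers, in CPM per kb, are TS reads scaled to 1000000 per library without TMM scaling.

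A single gene was called for a 12 h term. Of 19277 genes tested, 1 passed (0.00519%), the zinc finger gene Zbtb16 (edgeR, quasi-likelihood test, Benjamini-Hochberg adjusted p under 0.05). In the same model 5181 of the 19277 genes passed for the 24 h term (26.9%). An unadjusted p under 0.05 was found for 1418 genes (7.36%) at 12 h and for 7489 (38.8%) at 24 h. The 8 h alternation, the last pattern that 6 times can hold, gave 0 calls (0%) and 899 genes (4.66%) with an unadjusted p under 0.05 by the same tool, and no other tool was run on it. The share at 12 h was thus above that at 8 h and far below that at 24 h.

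**Figure D1:**
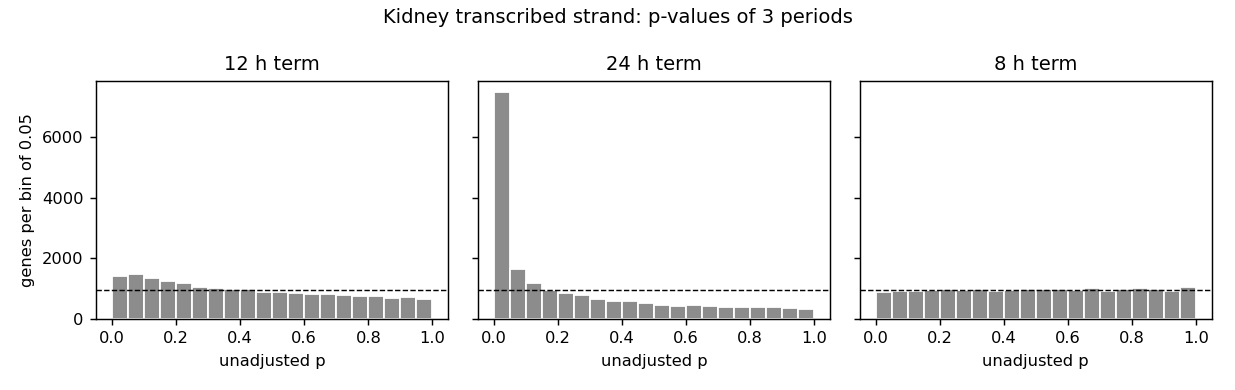
Histograms of the unadjusted p-values of 19277 genes for the 12 h, 24 h and 8 h terms of kidney TS repair, in bins of 0.05 (y axis, genes per bin). The dashed line marks an equal share in every bin: the lowest bin holds 1418 genes at 12 h, 7489 at 24 h and 899 at 8 h.

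The median fitted 12 h amplitude was 0.07, a 1.11-fold range between peak and trough, and its median SE was 0.05. The median 24 h amplitude was 0.13, a 1.21-fold range. The upper 95% limit of the 12 h amplitude lay under 0.25, a 1.41-fold range, for 12529 genes (65.0%), and all of these had a mean of at least 20 reads per library. For most genes a 12 h change larger than that lay outside the interval that these 12 libraries gave. The 12 h amplitude was the larger of the pair in 5308 genes (27.5%). Among the genes that passed for 24 h it was so in 23 (0.444%), a share that the choice by the 24 h test lowers. Of the 5181 genes called for 24 h, 546 (10.5%) had an unadjusted 12 h p under 0.05, against 872 of the other 14096 (6.19%). The groups were not matched: the median SE of the 12 h amplitude was 0.038 in the called genes and 0.061 in the others. Both terms of a gene also share the same estimate of its spread. These shares are therefore a description and do not show more 12 h signal in the genes called for 24 h.

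Among the 1418 genes with an unadjusted 12 h p under 0.05, the fitted peak was nearest to ZT0 and ZT12 in 742, to ZT4 and ZT16 in 401 and to ZT8 and ZT20 in 275. Over all genes tested, these windows held 7484, 6527 and 5266 genes. A repeating 12 h pattern also needs the same order of times in the light phase (ZT0, ZT4, ZT8) and in the dark phase (ZT12, ZT16, ZT20). The highest and the lowest of the 3 times were the same in both phases for 10.4% of all genes tested, and for 24.6% of the 1418, a share that the choice by p raises. These values are a description, since the 1418 genes were picked by the term itself.

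Zbtb16 encodes PLZF, a zinc finger transcription factor known as a target of the glucocorticoid receptor. The entry lies on the minus strand of chromosome 9, at chr9:48654297-48835945 in the coordinates of the authors' mm10 tables, and overlaps no other entry. Its TS repair was 386 and 272 CPM at ZT0, 583 and 467 at ZT4, 438 and 404 at ZT8, 548 and 451 at ZT12, 508 and 415 at ZT16, and 345 and 273 at ZT20, for replicates 1 and 2. Repair was thus high at ZT4 and ZT12, lower between them at ZT8 and lowest at ZT0 and ZT20. Replicate 1 was above replicate 2 at all 6 times, and the order of the times was the same in both except that replicate 1 had its lowest value at ZT20 and replicate 2 at ZT0.

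The 12 h amplitude of Zbtb16 was 0.26 ± 0.034 (SE, n = 12 libraries), a 1.43-fold range, with peaks at 3.30 h and 15.3 h (edgeR's quasi-likelihood test, Benjamini-Hochberg adjusted p = 0.0307). Fitted apart, the replicate numbers gave amplitudes of 0.28 and 0.25 and peaks 0.664 h apart. The 24 h amplitude of Zbtb16 was larger, at 0.31, with a peak at 9.57 h (adjusted p = 1.71e-05 by the same test). The light and dark phases did not repeat each other: the highest time was ZT4 in the light phase and ZT12 in the dark phase, and the lowest were ZT0 and ZT20. The 8 h term of the gene had an unadjusted p of 0.0163.

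The call for Zbtb16 hung on the setting. Its amplitude stayed between 0.22 and 0.27 in all alternatives, with the peak between 2.92 h and 3.61 h, but the adjusted p was above 0.05 in 6 of 12 alternative settings and without 10 of the 12 single libraries. The adjusted p was 7.42e-06 by DESeq2's likelihood ratio test, and by edgeR it was 8.17e-05 with no filter and 0.978 without the replicate number in the model. Leaving out a single library gave adjusted p-values between 6.74e-05, without ZT0 replicate 2, and 0.605, without ZT16 replicate 2.

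On the NTS, the repair of Zbtb16 was 228 and 210.4 NTS CPM at ZT0, 297 and 275 at ZT4, 273 and 253 at ZT8, 284 and 288 at ZT12, 271 and 244 at ZT16, and 215 and 185 at ZT20. The order of the times was close to that of the TS, with both replicates high at ZT4 and ZT12 and low at ZT0 and ZT20. The NTS amplitude was 0.14, with a peak at 2.89 h and an adjusted p of 0.506 (unadjusted 0.00957, edgeR). For the difference of TS and NTS the adjusted p was 0.571.

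In liver, the TS repair of Zbtb16 was 504 and 579 CPM at ZT0, 712 and 715 at ZT4, 726 and 733 at ZT8, 606 and 744 at ZT12, 713 and 673 at ZT16, and 633 and 587 at ZT20. Liver had no dip at ZT8, and its replicates stood furthest apart at ZT12. In liver the 12 h amplitude was 0.13, with a peak at 5.33 h and an adjusted p of 1.00 by edgeR (unadjusted 0.0245). The difference of the 12 h terms, kidney against liver, had an adjusted p of 1 and an unadjusted p of 0.00592 in edgeR's test of tissue by harmonic.

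**Figure D2:**
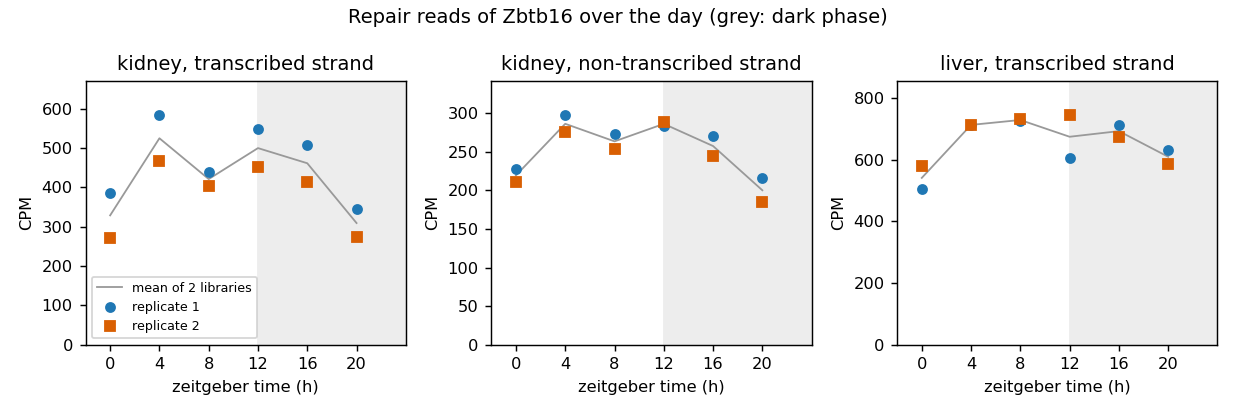
TS CPM of Zbtb16 by zeitgeber time in kidney (left), NTS CPM in kidney (middle) and TS CPM in liver (right). Circles are replicate 1, squares replicate 2, the line is the mean of 2 libraries, and grey marks the dark phase: kidney TS repair is high at ZT4 and ZT12 with a dip at ZT8, and liver has no dip there.

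The gene of the next smallest p was Arntl, which encodes BMAL1, the activator of the clock loop. Its entry lies on the plus strand at chr7:113207465-113314126. TS repair of Arntl in kidney was 380.1 and 368 CPM at ZT0, 319 and 277 at ZT4, 107 and 79.9 at ZT8, 134 and 85.8 at ZT12, 258 and 263 at ZT16, and 403 and 408 at ZT20. The values form 1 broad peak around ZT20 and ZT0 and a flat trough over ZT8 and ZT12, with no second peak. The 24 h amplitude was 1.13 (peak at 22.0 h), a 4.79-fold range. At 12 h it was 0.33 ± 0.05 (SE, n = 12 libraries), with a peak at 3.84 h, and did not pass (edgeR's quasi-likelihood test, adjusted p = 0.248). By edgeR, Arntl passed with no filter (adjusted p = 6.56e-04) and on tables drawn down to a fixed total of reads (0.0281). It passed in none of the other 10 alternative settings. Without ZT12 replicate 1, Arntl rather than Zbtb16 was the gene called, with an amplitude of 0.38.

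Liver Arntl repair was 416 and 424 CPM at ZT0, 411 and 396 at ZT4, 125 and 71.4 at ZT8, 105 and 137 at ZT12, 411 and 419 at ZT16, and 403 and 408 at ZT20. Its course was a plateau over 4 times with a trough at ZT8 and ZT12, and no value of the plateau came near the trough. The liver 12 h amplitude was 0.64, with a peak at 3.68 h, and had the smallest p of all genes in liver (unadjusted 2.36e-05, adjusted 0.41, edgeR). The difference of the 12 h terms of Arntl between kidney and liver had an unadjusted p of 0.0321 and an adjusted p of 1. On the kidney NTS the gene ranged from 260.0 to 376 NTS CPM, with a 12 h amplitude of 0.14 (adjusted p = 0.518, edgeR), so that the wide 24 h range was seen on the TS.

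The promoter of Arntl is shown because its start region holds the elements through which ROR and REV-ERB receptors act on it. RefSeq (GRCm38.p6) lists 2 start sites. The 250 bases before the first, on the plus strand at chr7:113207215-113207464, are given in lower case, and hold neither motif searched.
Arntl promoter: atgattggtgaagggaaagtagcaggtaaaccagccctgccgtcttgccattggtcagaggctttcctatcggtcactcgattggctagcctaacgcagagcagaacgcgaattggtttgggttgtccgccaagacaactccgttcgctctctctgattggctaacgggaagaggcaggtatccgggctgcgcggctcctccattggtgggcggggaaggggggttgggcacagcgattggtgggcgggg

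Around the second start site, the letters AGTAGGT, which both known ROR elements of the gene share, occur at 2 places on the plus strand, in capitals here. The stretches lie at chr7:113207494-113207514 and chr7:113207530-113207554, and the first capital of each is at -8 and at 29 of that start site.
Arntl element 1: tggtcggaaAGTAGGTtagtg
Arntl element 2: aaggcagaaAGTAGGTcagggacgg
Searched on both strands, AGTAGGT occurs in 2.46% of the 32851 RefSeq promoter windows of 300 bases. The E-box CACGTG, which does not overlap it, occurs in 7.15% of the windows and in neither Arntl window. A match of letters is a description of the sequence only.

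Per2, a repressor of the loop, had 147 and 176 CPM at ZT0, 208 and 207 at ZT4, 271 and 259 at ZT8, 270.2 and 284 at ZT12, 292 and 276 at ZT16, and 284 and 255 at ZT20. Repair was low at ZT0 and ZT4 and flat from ZT8 to ZT20, without a second peak. Its 12 h amplitude was 0.19 ± 0.04, peaking at 6.82 h, and did not pass (adjusted p = 0.619, edgeR). In liver it was 0.36 with a peak at 8.51 h, and the test of the difference between kidney and liver gave an unadjusted p of 0.0187 and an adjusted p of 1. The NTS of Per2 in kidney took another course, with 323 and 259 NTS CPM at ZT4 and 105 and 116 at ZT16, and a 12 h amplitude of 0.09. The difference of TS and NTS at 12 h had an unadjusted p of 2.91e-05, the smallest of that comparison, and an adjusted p of 0.452.

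Over the list of 20 core clock and output genes, 0 were called for 12 h and 19 for 24 h, against 0.00519% and 26.9% of all genes tested. By edgeR 11 of the 20 had an unadjusted 12 h p under 0.05, against 7.36% of all genes. Their median 12 h amplitude was 0.10, against 0.07 for all genes tested, and their median 24 h amplitude was 0.35, against 0.13. The clock list was not matched to all genes by SE or reads. DESeq2's likelihood ratio test also called none of the 20. Dbp, an output transcription factor of the clock, had 11.1 and 8.99 CPM at ZT0, 20.1 and 18.2 at ZT4, 37.7 and 40.1 at ZT8, 31.6 and 35.1 at ZT12, 21.3 and 18.4 at ZT16, and 14.2 and 13.9 at ZT20. Dbp had 1 peak a day, at ZT8 in both replicates.

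At 12 h the amplitude was 0.21 for Dbp (peak 7.61 h) and 0.22 for Nr1d1 (peak 1.75 h), the gene of the repressor REV-ERB alpha, each with an adjusted p of 0.647 by edgeR. Their 24 h amplitudes were 0.93 and 0.73. Npas2, a partner of BMAL1 and the list's gene of widest 24 h range with an amplitude of 1.68, had a 12 h amplitude of 0.07. Per3, another Per gene, reached 0.50 at 24 h and 0.10 at 12 h, with an unadjusted p of 0.0124. In liver Per3 had a 12 h amplitude of 0.32, and the difference between kidney and liver had an unadjusted p of 0.00251 and an adjusted p of 1. The 12 h amplitude of Dbp was 0.21 in kidney and 0.50 in liver. Nr1d1 had 0.22 in kidney and 0.16 in liver, and Cry1, Cry2 and Per1 were likewise fitted larger in kidney, so that the list did not go one way. For none of its genes did the test of the difference between kidney and liver pass.

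Of the other 9 genes of smallest p, Hif3a encodes a subunit of the hypoxia-inducible factors that can restrain the others. It lies at chr7:17030993-17062427 on the minus strand. Kidney TS repair of Hif3a was 18.2 and 15.6 CPM at ZT0, 38.5 and 26.4 at ZT4, 27.7 and 26.2 at ZT8, 47.3 and 31.4 at ZT12, 29.7 and 25.1 at ZT16, and 12.6 and 13.9 at ZT20. As for Zbtb16, ZT4 and ZT12 were high and ZT0 and ZT20 low in both replicates, and the dip at ZT8 was plain in replicate 1 and barely there in replicate 2. Its 12 h amplitude was 0.37 ± 0.06, a 1.66-fold range with a peak at 2.55 h, beside 0.64 at 24 h (peak at 9.79 h). The adjusted p was 0.248 by edgeR and 0.00805 by DESeq2's likelihood ratio test, which called Hif3a and Zbtb16. On the NTS, the amplitude of Hif3a was 0.24 peaking at 2.48 h (adjusted p = 0.434 by edgeR).

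Ptpn5 encodes a protein tyrosine phosphatase, and its entry overlaps that of Mir7056 on the same strand, and the source of reads in the shared stretch is uncertain. Ptpn5 had 9.66 and 5.87 CPM at ZT0, 12.3 and 7.79 at ZT4, 8.14 and 6.66 at ZT8, 14.9 and 12.1 at ZT12, 10.5 and 7.31 at ZT16, and 7.21 and 4.38 at ZT20. The highest value of both replicates was at ZT12 and the lowest at ZT20. Its 12 h amplitude of 0.41 ± 0.07 was the largest of the 12 genes, beside 0.38 at 24 h. The entry held 127 reads per library on average, and the adjusted p was 0.344 by edgeR.

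Wdr8 (Wrap73 in RefSeq), which encodes a WD-repeat protein, had 40.7 and 37.7 CPM at ZT0, 46.4 and 39.2 at ZT4, 45.1 and 35.7 at ZT8, 39.8 and 34.7 at ZT12, 62.9 and 47.8 at ZT16, and 59.5 and 47.8 at ZT20. Repair stood higher at ZT16 and ZT20 than at the other times within each replicate. The amplitude at 12 h was 0.21 ± 0.04 with a peak at 5.65 h, and in liver 0.14 with a peak at 5.88 h (adjusted p = 0.248 in kidney and 1.00 in liver, edgeR). By the mean of the 2 libraries, the second time was the highest and the first the lowest in both phases of the day, which did not hold in replicate 2 alone.

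Dnah11, which encodes a dynein heavy chain of cilia, showed the pattern of a repeated wave. It had 18.9 and 17.1 CPM at ZT0, 13.3 and 13.6 at ZT4, 16.0 and 17.9 at ZT8, 16.1 and 17.2 at ZT12, 12.5 and 12.7 at ZT16, and 15.9 and 14.8 at ZT20. ZT4 and ZT16 were the low times in both replicates and lay below all other times. Its 12 h amplitude was 0.24 ± 0.05 with a peak at 10.5 h and was 2.84 times the 24 h amplitude of 0.09 (adjusted p = 0.647, edgeR). Liver gave 0.24 peaking at 10.1 h (adjusted p = 1.00 by edgeR). The entry overlaps Cdca7l on the opposite strand, and reads are assigned by strand.

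Arhgef33, a gene of the guanine nucleotide exchange factor family, also had, by the mean of the 2 libraries, the same high and low time in both phases of the day, though in replicate 2 ZT4 was above ZT0. Its TS repair was 49.2 and 40.0 CPM at ZT0, 45.9 and 41.3 at ZT4, 33.4 and 31.3 at ZT8, 45.0 and 38.5 at ZT12, 39.7 and 37.7 at ZT16, and 34.8 and 36.2 at ZT20. ZT8 was the lowest time, and ZT20 lay close to it in replicate 1. The fitted amplitude was 0.21, 2.61 times that at 24 h, with a peak at 1.62 h. The 4 other genes of the 12 had 12 h amplitudes between 0.12 (Samd4, peak 5.87 h) and 0.37 (Zbtb8b, peak 11.7 h), and the adjusted p of these 5 genes was between 0.619 and 0.647 by edgeR.

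Of those 4 genes, Zbtb8b had a mean of 6.25 CPM, with 10.3 and 7.95 at ZT0, against 4.44 and 5.38 at ZT8. Ror2, a receptor of Wnt5a, had 120.2 and 111 CPM at ZT16 and 78.0 and 80.4 at ZT8. The entry 4933424G05Rik, on chromosome 18 and overlapped by Kctd1 on the opposite strand, had 35.1 and 32.8 CPM at ZT0 and 20.7 and 22.3 at ZT4. By the mean of the 2 libraries, its high and low times were the same in both phases of the day, which held in neither replicate alone. In each of these 3 genes, the groups of 4 libraries at the folded times ZT0 with ZT12, ZT4 with ZT16 and ZT8 with ZT20 overlapped, except that all 4 values of Zbtb8b at ZT0 and ZT12 lay above all 4 at ZT4 and ZT16.

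**Figure D3:**
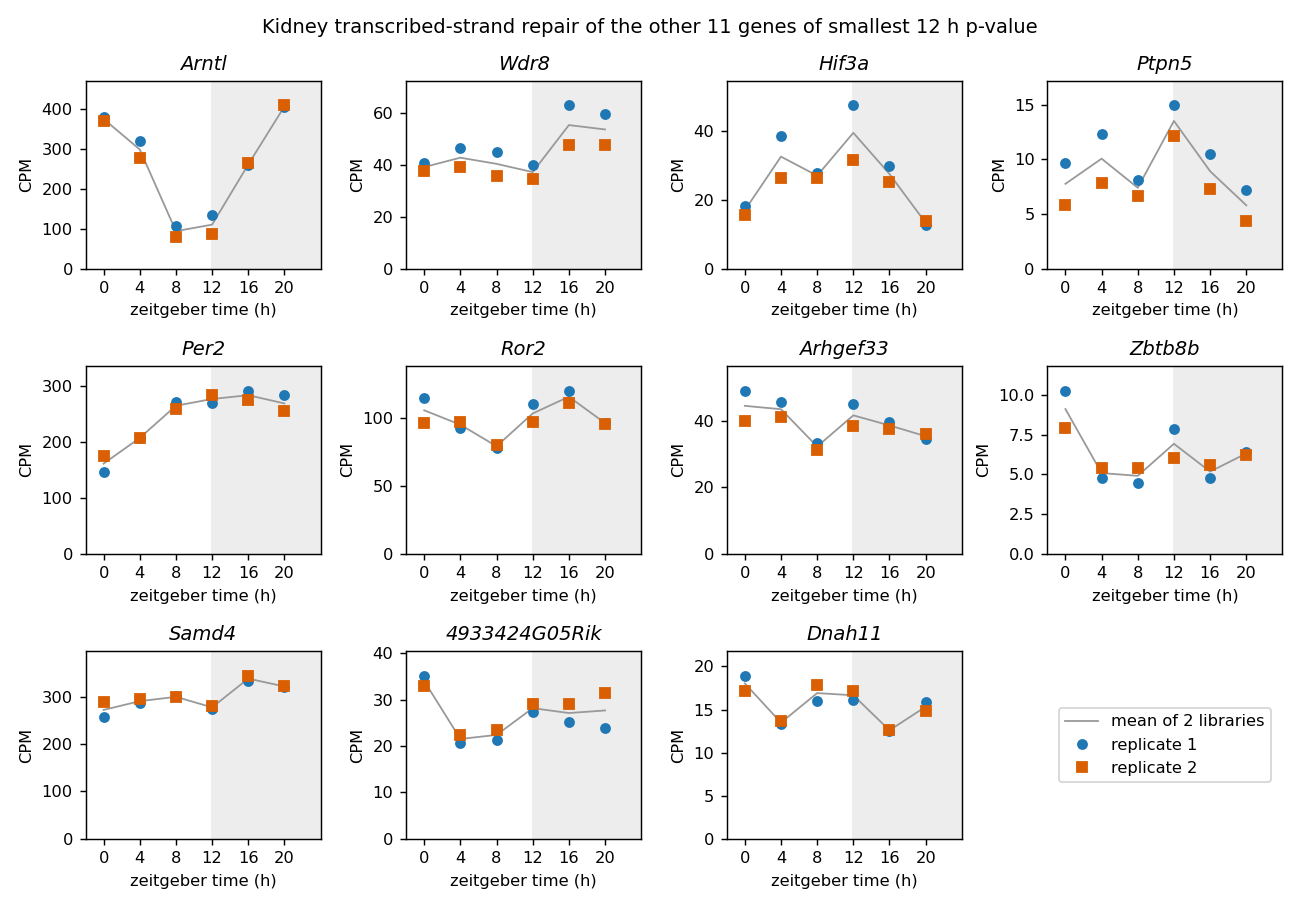
Kidney TS CPM by zeitgeber time for the 11 genes of smallest 12 h p after Zbtb16, none of which passed. Circles are replicate 1, squares replicate 2, lines the means of 2 libraries, and grey marks the dark phase. The means of Dnah11 and Arhgef33, among others, show 2 waves a day, while those of Arntl and Per2 show 1.

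The genes most often linked to 12 h rhythms gave no call, where edgeR called 0.00519% of all genes. Of 30 genes of ER stress and the unfolded protein response, 0 were called by edgeR or by DESeq2's likelihood ratio test and 1 had an unadjusted p under 0.05, against 7.36% of all genes (Syvn1, an ER ubiquitin ligase, amplitude 0.10). Their median 12 h amplitude was 0.04, against 0.07 for all genes tested, and the upper limit lay under 0.25 in 29 of 30. This list was not matched to all genes by SE or reads. For 24 h, 11 of the 30 passed, against 26.9% of all genes. Xbp1, the factor that drives the response, had 31.6 and 36.0 CPM at ZT0, 33.7 and 37.1 at ZT4, 41.9 and 42.2 at ZT8, 33.3 and 39.5 at ZT12, 27.4 and 36.5 at ZT16, and 34.2 and 33.5 at ZT20. Its values were highest at ZT8 in both replicates and had no common second peak.

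For Xbp1 the 12 h amplitude was 0.09, with an upper limit of 0.18 (adjusted p = 0.676, edgeR). Hspa5, the ER chaperone BiP, had an amplitude of 0.08 with an upper limit of 0.20, and Atf6, a sensor of ER stress, 0.04 with an upper limit of 0.09. The sensors Ern1 and Eif2ak3 each had an amplitude of 0.01, with an upper limit of 0.06 for both. The list of 30 genes of the secretory pathway gave 0 calls by edgeR and by DESeq2, and a median amplitude of 0.05. An unadjusted p under 0.05 was found for 0 of them by edgeR, against 7.36% of all genes. As edgeR called 0.00519% of all genes, 0 calls set neither this list nor the next apart. Of 18 heat shock genes, 16 were tested and 0 were called, with a median of 0.05. Hspa8, a cytosolic chaperone, had the largest amplitude of that list, 0.22, at an unadjusted p of 0.0163.

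The nucleotide excision repair genes, whose products do the work measured here, were examined for 12 h terms in their own repair. Of 30 tested, 0 were called by edgeR or DESeq2, where edgeR called 0.00519% of all genes. At that share, 0 calls do not set the list apart. By edgeR 0 of the 30 had an unadjusted p under 0.05, against 7.36% of all genes, and 28 had an upper limit under 0.25. Their median amplitude was 0.05 at 12 h and 0.09 at 24 h, against 0.07 and 0.13 for all genes tested, to which they were not matched by SE or reads. At 24 h 7 of the 30 were called, a share near the 26.9% of all genes. Xpa, the damage verification factor with a known circadian rhythm in mouse liver, had a 12 h amplitude of 0.07 with an upper limit of 0.14. Ercc6, which encodes the coupling factor CSB, had 0.03 with an upper limit of 0.09, and Xpc, the damage sensor of global repair, 0.04 with an upper limit of 0.11.

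Among 20 glucocorticoid targets, the 1 gene called by edgeR was Zbtb16, the only call over all genes tested (0.00519%). The median amplitude was 0.06. Of the 20, 3 had an unadjusted p under 0.05 by edgeR, against 7.36% of all genes, and 13 had an upper limit under 0.25. The largest amplitude of the list, 0.32, was that of another gene, which did not pass. The targets Fkbp5, Tsc22d3 and Sgk1 had amplitudes of 0.05, 0.02 and 0.03. By edgeR, cholesterol synthesis (22 genes) had 0 calls and 0 unadjusted p-values under 0.05, against 0.00519% and 7.36% of all genes. All 22 upper limits were under 0.25. Of the genes of the loop of Henle and distal tubule, 7 of 18 had an unadjusted p under 0.05, against 7.36% of all genes. Of the 18, 0 were called by edgeR, against 0.00519% of all genes, or by DESeq2, and their median amplitude was 0.09.

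The 7 genes were Slc12a1, Kcnj1, Slc12a3, Trpm6, Calb1, Wnk4 and Slc8a1, which encode salt, magnesium and calcium transport proteins of these segments and a kinase that regulates them. Trpm6, the magnesium channel, had 69.5 and 69.0 CPM at ZT0, 55.5 and 56.1 at ZT4, 48.5 and 49.3 at ZT8, 66.0 and 65.3 at ZT12, 70.5 and 74.1 at ZT16, and 62.2 and 73.5 at ZT20. It was lowest at ZT8 in both replicates, and the libraries of 1 time lay close together at all times but ZT20. Its 12 h amplitude was 0.13 peaking at 1.23 h, beside 0.25 at 24 h (adjusted p = 0.647, edgeR). The peaks of the 7 genes lay between 10.7 h and 1.23 h except that of Wnk4, at 6.41 h. The summed level of the 4 markers of these segments was 4.46 to 5.10 CPM per kb at ZT0 and ZT12, 3.56 to 4.70 at ZT4 and ZT16, and 3.93 to 4.46 at ZT8 and ZT20. Of these markers, Slc12a1, Slc12a3 and Kcnj1 are among the 7 genes themselves, so that the sum is no independent measure of the share of these cells, whose part in these values was not tested.

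**Figure D4:**
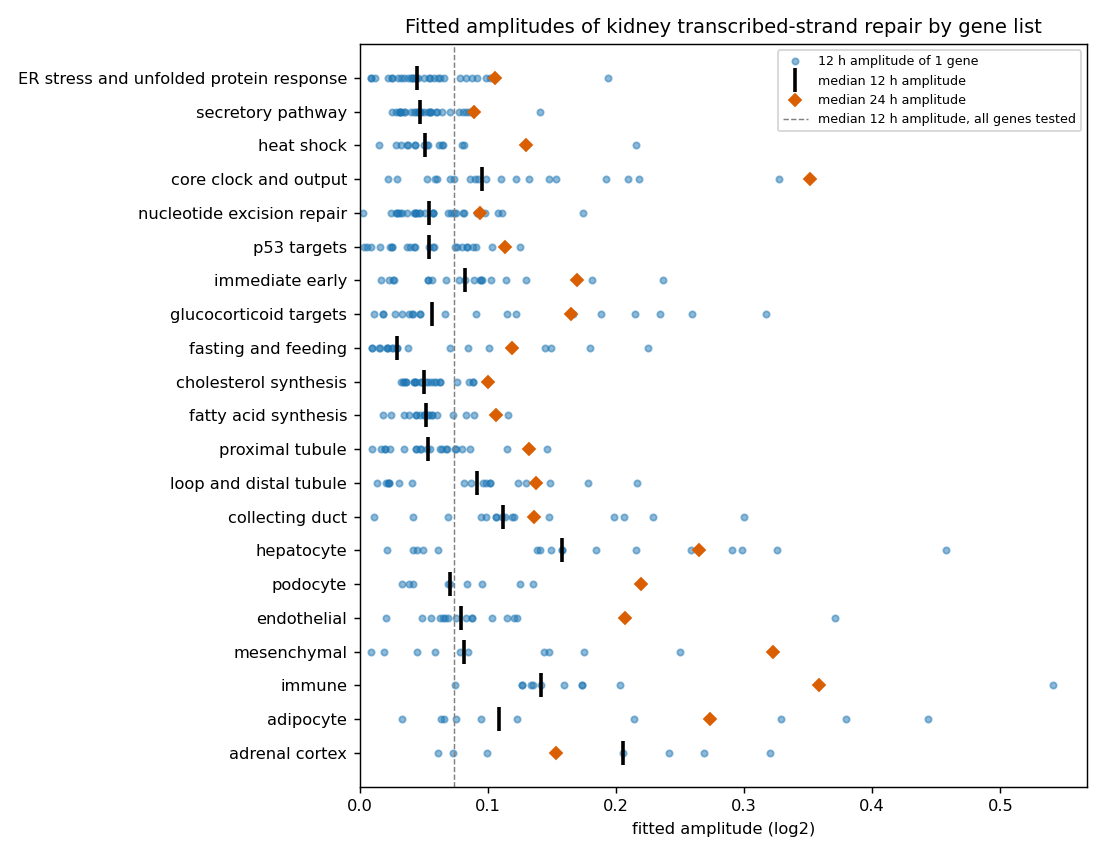
Fitted 12 h amplitudes (log2, x axis) of single genes in 21 lists, as dots, with their median as a bar, the median 24 h amplitude of the list as a diamond, and the median 12 h amplitude of all genes tested, 0.07, as a dashed line. Medians of the ER stress list (0.04) and the nucleotide excision repair list (0.05) lie left of the line, and that of the core clock list (0.10) lies right of it. The lists were not matched to all genes by SE or reads.

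With 0.00519% of all genes called by edgeR, the remaining lists held no call in edgeR or in DESeq2's test. Their medians were 0.05 for p53 targets, fatty acid synthesis and proximal tubule genes, 0.03 for fasting and feeding, 0.08 for immediate early genes and 0.11 for collecting duct. Lists of cells that are rare or absent in kidney had wider values with few reads, such as 0.16 for hepatocyte genes, 0.14 for immune genes and 0.21 for adrenal cortex genes. By edgeR, an unadjusted p under 0.05 was found for 2 of 19 immediate early, 2 of 16 endothelial, 1 of 9 podocyte and 1 of 11 immune genes. It was found for 1 of 10 genes in each of the mesenchymal and adipocyte lists. The counts were 1 of 23 p53 targets, 1 of 22 proximal tubule genes and 1 of 17 hepatocyte genes. They were 0 of 19 for fasting and feeding, 0 of 18 for fatty acid synthesis, 0 of 16 for collecting duct and 0 of 7 for adrenal cortex. Over all genes the share was 7.36%, with lists on both sides of it.

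Markers of the proximal tubule, the loop and distal tubule, the collecting duct and hepatocytes fitted the labelled tissue. The 3 podocyte markers did not separate the tissues, with sums of 0.774 to 1.37 CPM per kb in kidney and 0.575 to 1.56 in liver. Adipocyte sums overlapped between the tissues, and adrenal cortex sums were higher in liver. The 6 proximal tubule markers summed to 9.16 to 12.1 CPM per kb in kidney libraries, against 0.691 to 1.43 in liver libraries, and the 6 hepatocyte markers to 2.89 to 3.88 in kidney, against 9.49 to 16.5 in liver. At the folded times the proximal tubule sum was 9.16 to 10.9 at ZT0 and ZT12, 9.35 to 12.0 at ZT4 and ZT16, and 9.68 to 12.1 at ZT8 and ZT20, and these ranges overlap. Kidney libraries held 8718055 to 33716763 reads in all, of which 6334958 to 24236776 were TS reads.

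On the kidney NTS, 0 of 18932 genes were called for 12 h (0%) by edgeR's quasi-likelihood test, with 1420 (7.50%) at an unadjusted p under 0.05 and no other tool run. The median NTS amplitude was 0.11, with a median SE of 0.08 that was wider than that of the TS. The test of TS against NTS gave 0 calls of 19756 (0%) and 1594 (8.07%) at an unadjusted p under 0.05. In liver 0 of 18655 genes were called for 12 h (0%), with 538 (2.88%) at an unadjusted p under 0.05, while 2936 (15.7%) were called for 24 h. The median liver amplitude was 0.07 with a median SE of 0.07. Between kidney and liver, 0 of 19702 genes differed in their 12 h term (0%), and 604 (3.07%) had an unadjusted p under 0.05. The last 3 tests were run with edgeR alone.

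A single library changed the kidney result. Without ZT0 replicate 2, 323 of 19159 genes were called (1.69%) and 2972 (15.5%) had an unadjusted p under 0.05, by the same edgeR test. Without ZT12 replicate 2 there were 6 calls, and without any other single library 0 or 1. Of the 323 genes, 306 (94.7%) had their peak nearest to ZT0 and ZT12, against 39.7% of the genes tested in that fit. Their median amplitude was 0.21, and 0.13 with all 12 libraries, and the choice of these genes by p in the first fit raises the first value. The genes of smallest p named above were among them too. That was likely from the start and lends no support, since they were chosen by p in a fit that holds all of these libraries.

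The 323 genes were long, with a median of 101 kb, against 20.9 kb for all genes tested with all libraries. The pair of ZT0 libraries stood furthest apart of the 6 pairs, with a root mean square difference of 0.359 on the log2 scale, against 0.225 to 0.316 for the other times. The root mean square distance from the fit with all libraries was 0.132 for ZT0 replicate 1 and 0.134 for ZT0 replicate 2. It was largest for ZT4 replicate 1, at 0.139, so that this distance did not single out ZT0 replicate 2. The slope of log2 TS density over log2 gene length was -0.53 in ZT0 replicate 1 and -0.57 in ZT0 replicate 2, within the range of the 12 libraries (-0.59 to -0.52). With each library's trend over gene length removed, an alternative added once the data had been seen, 121 genes were called without ZT0 replicate 2 and 1 with all libraries. The part of that library or of gene length in these counts was not otherwise tested.

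Which genes depend on the library can be seen in Acacb, Pcx and Atp6v1b1, members of the lists named after their values were seen. Acacb, an acetyl-CoA carboxylase of fatty acid oxidation control, had 173 and 91.6 CPM at ZT0, 114 and 108 at ZT4, 101 and 87.9 at ZT8, 131 and 115 at ZT12, 128 and 129 at ZT16, and 137 and 118 at ZT20. ZT0 replicate 1 was the highest of the 12 libraries and ZT0 replicate 2 the second lowest. Its amplitude was 0.21 without ZT0 replicate 2 (adjusted p = 0.00564, edgeR) and 0.12 with all libraries (adjusted p = 0.683). Atp6v1b1, a proton pump subunit of intercalated cells, had 38.7 and 18.9 CPM at ZT0 and 22.1 to 30.4 at the other times.

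Pcx, pyruvate carboxylase of gluconeogenesis, had 246 and 141 CPM at ZT0 and 149.8 to 211 at the other times. In these 3 genes the ZT0 libraries lay at or next to opposite ends of the range, and the fit without replicate 2 rests at ZT0 on replicate 1. Zbtb16, Arntl and Per2 were also among the list members called in that fit. None of the 30 ER stress genes, 30 secretory pathway genes or 30 nucleotide excision repair genes was called there by edgeR, which is near the 1.69% called over all genes in that fit, and most of the other lists held no call there either.

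**Figure D5:**
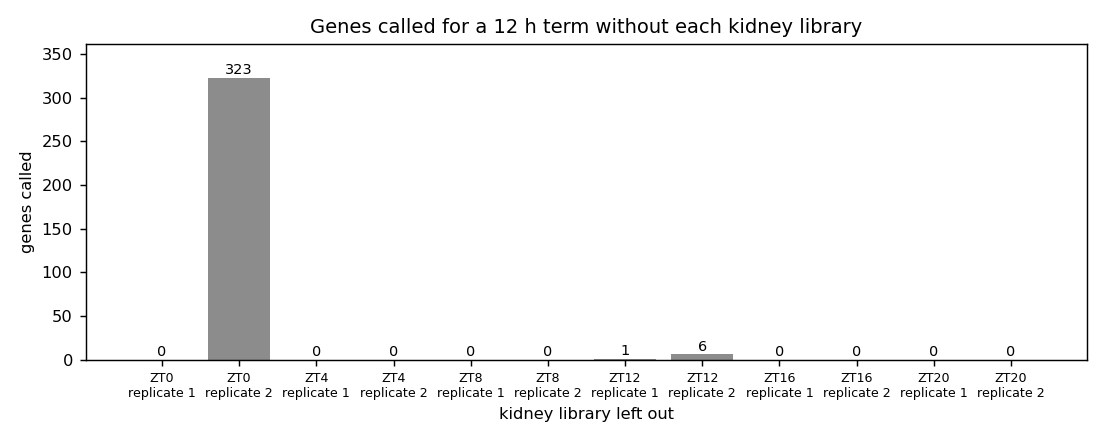
Number of genes called for the 12 h term in kidney TS repair (y axis) when each of the 12 kidney libraries is left out in turn (x axis). Without ZT0 replicate 2 the count is 323, without ZT12 replicate 2 it is 6, and without any other library it is 0 or 1.

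Whole-library measures were tested for the same 12 h term by permuting the times within each replicate number in all orders (518400 permutations, n = 12 libraries, two-sided by the F statistic). The values were permuted with their 24 h part left in. The p is therefore exact only where time has no effect of any period, and approximate for the 12 h term where a 24 h part is present. The TS share of genic reads averaged 85.5 ± 1.05% at ZT0 and ZT12, 86.3 ± 0.664% at ZT4 and ZT16, and 85.8 ± 1.88% at ZT8 and ZT20 (SD, n = 4 each). Its 12 h amplitude was 0.487 percentage points, with an exact permutation p of 0.143, or 0.217 adjusted over the 3 measures. The library total averaged 24530000 ± 6422000 reads at ZT0 and ZT12, 17480000 ± 6678000 at ZT4 and ZT16, and 18350000 ± 7191000 at ZT8 and ZT20 (SD, n = 4 each), with an exact permutation p of 0.145, or 0.217 adjusted. The slope over gene length had a p of 0.682 by the same exact test. None of the 3 measures passed. Without ZT16 replicate 1 the exact p of the TS share was 0.0444, and without ZT12 replicate 2 that of the library total was 0.0103.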

How the data were processed

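The deposited tables list counts and RPKM values by gene entry and time, 1 table per tissue, strand and replicate, per the file headers. The authors' counts were tested as whole numbers, and their deposited RPKM values served only to recover library totals. The build is mm10 per the submitters' processing notes, and the aligner is not given in the sources used here. Of 25239 entries, 24357 with a symbol were kept. Entries without a symbol took 2.76% of kidney TS reads. Counts were fitted with edgeR 4.0.16 (limma 3.58.1, R 4.3.3): filterByExpr, TMM, glmQLFit and glmQLFTest on both 12 h coefficients, Benjamini-Hochberg adjustment over all genes tested and a threshold of 0.05. The model held the replicate number, 24 h and 12 h terms, with 6 residual degrees of freedom. Replicate numbers paired the libraries: in 15 of 15 pairs of times, deviations of same-numbered libraries correlated (0.161 to 0.487, 16811 genes). DESeq2 1.42.0 was an alternative. For the named genes and list members in kidney, the SE is the amplitude over the square root of F along the fitted peak. In summaries over all genes it is the amplitude over the square root of 2 times the joint F of both coefficients. The named genes are called genes, the 12 of smallest p with at least 20 reads, and list members. Scripts were tested on simulated data. Members and lists were chosen with earlier results of these data known. Intervals cover the spread between libraries.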

Additional observations from a re-analysis of the deposited data

How the results depend on the processing

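The replicate numbers pair the libraries, and without the replicate block the count of 12 h calls in kidney was 0 (505 genes at an unadjusted p under 0.05) and that of 24 h calls 2536, while the count stayed at 0 for the 8 h term and for the 12 h terms of the NTS, of liver, between strands and between tissues. The 12 h count in kidney was 0 with DESeq2 size factors, with a minimum mean of 20 reads, without the 24 h terms, with robust fitting and with overlapping entries left out. It was 4 with no filter (Zbtb16, Arntl, Hif3a and Per2), 2 by DESeq2's likelihood ratio test (Zbtb16 and Hif3a) and 2 on the tables drawn down to a fixed total (Zbtb16 and Arntl). It was 121 with the length trend removed and ZT0 replicate 2 left out. Leaving out single libraries gave 0 to 323 calls in kidney, 0 to 14 on the NTS, 0 to 5 in liver and 0 to 1 between tissues. The library without which the NTS count was 14 was ZT0 replicate 2, and that for the liver count of 5 was liver ZT0 replicate 1. The amplitude of the TS share ranged from 0.354 to 0.680 percentage points and that of the library total from 1622000 to 7039000 reads. The adjusted p of Zbtb16 was 0.0503 with DESeq2 size factors, 0.0611 with the minimum of 20 reads, 0.0761 with robust fitting, 0.0794 without overlapping entries and 1.00 without the 24 h terms. In the 6 alternative settings where Zbtb16 passed, its adjusted p lay between 7.42e-06 (DESeq2's likelihood ratio test) and 0.0104 (edgeR with the 8 h term added). With 2 libraries per time and 4 h between times, the upper limit of the 12 h amplitude was 0.25 or more for the genes other than the 12529 given above.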
